A study of Mus musculus with 6 samples.

Results

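The simple epithelial keratins are 5 genes in mouse kidney proximal tubules: the type II keratins Krt7 and Krt8 and the type I keratins Krt18, Krt19 and Krt20. They were chosen by gene symbol and are 5 of the 32544 genes in the table. Each of the 5 symbols occurred once. The question was how these genes, named for their place in single-layered epithelia, stood in tubules of mice given aristolochic acid I.

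Keratins build the intermediate filaments of epithelial cells. A filament subunit pairs a type I with a type II keratin, and Krt8 with Krt18 is the pair found in most simple epithelia, while Krt7 and Krt19 are known from ducts and Krt20 from intestinal epithelium and the umbrella cells of the bladder. In kidney, Krt8, Krt18, Krt7 and Krt19 are known mainly from distal tubules and collecting ducts, and they are commonly described as low in the healthy proximal tubule and higher after tubular injury.

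The libraries held polyadenylated RNA of hand-dissected S2 and S3 segments, the later stretches of the proximal tubule, from C57Bl/6 mice. Group AA had 3 libraries from mice given 3 mg/kg aristolochic acid I (AAI in the design text), a plant nephrotoxin that forms DNA adducts. Group DMSO had 3 libraries from mice given the solvent dimethyl sulfoxide. Both groups were taken 24 h after a single injection, are called control mice in the design text, and drew on 5 to 10 tubules pooled per kidney. The labels give no age, sex or allele, and nothing in them tells separate animals from repeat samples of one animal. The p-values therefore measure the spread between libraries, which may be technical.

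Depth was 13304877 to 17815915 reads in AA and 15958557 to 31136251 reads in DMSO. Levels are CPM, reads scaled to a fixed library total. Of all genes, 14311 reached 1 CPM in at least 3 libraries and were tested with limma on log2(CPM + 1), with p-values adjusted over all of them and a threshold of 0.05 for the adjusted p. DMSO replicates 1 and 2 stood apart from DMSO replicate 3 and the AA libraries by more than 2 on the log2 scale for 44 genes, none of them a keratin studied here. Of those 44, 42 were predicted genes or pseudogenes by name. Proximal tubule markers were present in every library, with a summed level of 35667 to 49365 CPM in AA and 42633 to 57776 CPM in DMSO over 12 genes. Kap alone had a mean of 25582 CPM in AA and 23635 CPM in DMSO and was not called (0.11, limma adjusted p = 0.861). The sum without Kap was not computed. Called lower were Lrp2 (log2 fold change -1.44), Cubn (-1.11) and Slc27a2 (-1.04), and called higher was Slc5a2 (0.71). Kap and Slc27a2 apart, these were named after their values were seen. Over all tested genes 22.3% were called higher and 8.66% lower. Over all tested genes the log2 fold change had a median of 0.21, and of -0.05 when library medians were made equal. Equal medians moved the higher share of all calls to 39.9%, against 72.0% without that step.

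All 5 keratins had higher mean levels in AA than in DMSO. Krt20 differed most: it was read in all 3 AA libraries and hardly at all in DMSO. Krt7, Krt18 and Krt19 stood about 1 log2 unit higher and Krt8 0.71 higher. With limma, all 5 were called higher in AA, where 22.3% of all tested genes were called higher and 8.66% lower. Krt20 passed the filter on low values through the AA libraries alone, so it had to differ; the other 4 were at or above 1 CPM in all 6 libraries. In bulk tubules, fewer cells of a type and less RNA per cell cannot be told apart, and the same holds for more.

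**Figure D1:**
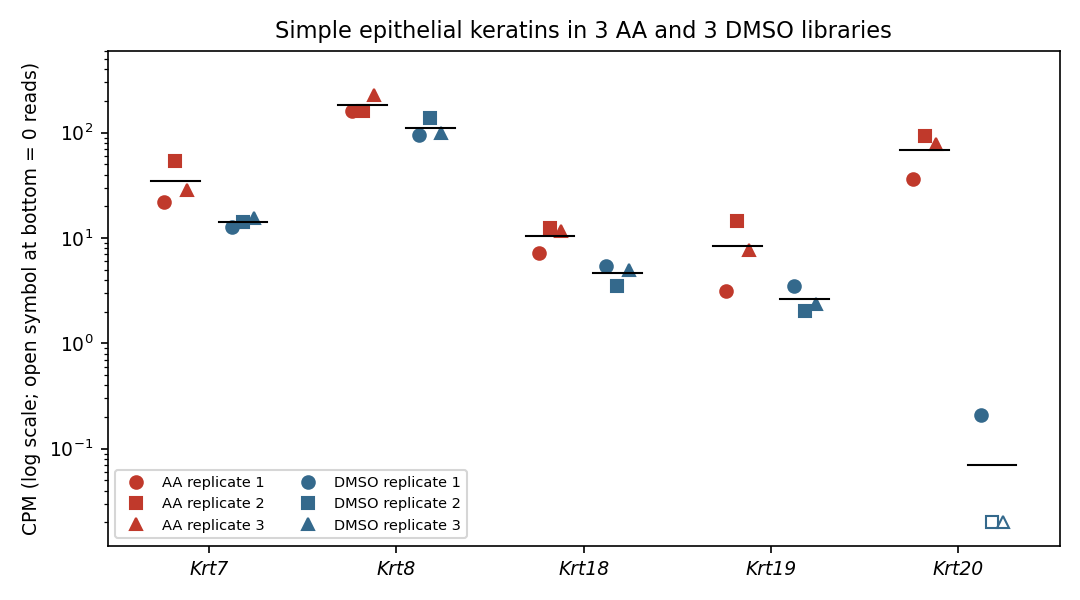
Levels of the 5 keratins in CPM on a log axis, with AA libraries left of DMSO libraries, each symbol a library (open at the bottom for 0 reads) and each short line a group mean. Krt20 lies at 36.5 to 92.4 CPM in AA and at 0 to 0.209 CPM in DMSO, and Krt19 alone overlaps between the groups.

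Krt20 lies on chromosome 11 of the mouse build mm10, at 99428403 to 99438150 on the minus strand (ENSMUSG00000035775.2), and has 8 exons. Its protein is a type I keratin of mature intestinal and urothelial cells. The promoter windows of Krt20, Krt7 and Krt8 are shown here because each holds a match to one of the motifs searched, and because Krt20 had the largest difference of the 5. Both strands were searched. The TATA box was searched as TATAAA. A GC box was the run GGGCGG. The site of TEAD factors was written as GGAATG. For AP-1 the letters were TGANTCA, and the p53 half-site was searched under its consensus. Windows of 250 bases before to 50 bases after the start came from RefSeq (GRCm38.p6) and matched 4 of the 5 genes, Krt19 not among them. Capitals mark the matches, each sequence running 5′ to 3′ along the gene, at chr11:99438104-99438403 (minus strand), chr15:101412153-101412452 (plus strand) and chr15:102004293-102004592 (minus strand).
Krt20: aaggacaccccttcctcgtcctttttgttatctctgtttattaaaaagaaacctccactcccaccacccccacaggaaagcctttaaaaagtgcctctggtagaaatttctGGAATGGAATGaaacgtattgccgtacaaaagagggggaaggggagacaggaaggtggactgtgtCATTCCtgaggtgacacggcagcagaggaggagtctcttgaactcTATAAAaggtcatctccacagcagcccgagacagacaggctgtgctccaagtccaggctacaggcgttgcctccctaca
Krt7: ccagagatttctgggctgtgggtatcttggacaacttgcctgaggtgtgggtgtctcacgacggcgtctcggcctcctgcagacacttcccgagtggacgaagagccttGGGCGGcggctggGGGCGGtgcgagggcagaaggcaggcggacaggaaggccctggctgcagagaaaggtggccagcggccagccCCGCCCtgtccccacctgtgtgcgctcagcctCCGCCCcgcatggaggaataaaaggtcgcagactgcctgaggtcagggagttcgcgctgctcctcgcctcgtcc
Krt8: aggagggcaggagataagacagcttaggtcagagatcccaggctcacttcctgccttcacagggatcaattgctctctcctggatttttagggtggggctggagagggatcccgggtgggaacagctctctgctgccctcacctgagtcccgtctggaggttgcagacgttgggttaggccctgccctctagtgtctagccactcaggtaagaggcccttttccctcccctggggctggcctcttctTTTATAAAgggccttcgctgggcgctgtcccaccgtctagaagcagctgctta

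The Krt20 window held a TATAAA whose first base lay at -29, and 3 GGAATG matches, at -139 and -134 on the gene's strand and at -74 on the other, the first pair sharing 1 base. At least 3 GGAATG were present in 0.131% of 32851 windows of that length, at least 1 in 14.7%, and TATAAA in 13.6%. Krt7 held 4 GC boxes, at -141, -128, -56 and -24, and 10.7% of windows held 3 or more. Krt8 held TATAAA on both strands, overlapping around the start that RefSeq gives. Krt18 held none of the 5 motifs, and neither AP-1 nor the p53 half-site was found in any of the 4 windows; their shares over all windows were 7.81% and 8.36%. A match of letters is a description of the window and says nothing about binding.

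Krt20 had 36.5, 92.4 and 78.5 CPM in AA replicates 1, 2 and 3, against 0.209, 0 and 0 CPM in DMSO replicates 1, 2 and 3. Every AA library lay far above every DMSO library. These levels stood for 486, 1646 and 1093 reads in AA and for 5, 0 and 0 reads in DMSO, so the few DMSO reads all came from replicate 1. A count of 0 allows up to 3 reads, which is 0.0964 CPM in DMSO replicate 2 and 0.188 CPM in DMSO replicate 3. Over the floor of DMSO replicate 3, AA replicates 1, 2 and 3 were 194-, 491- and 417.5-fold, with counting error in AA left aside. The ratio of pooled CPM was 1016 with a counting interval of 435 to 3133, which covers counting error only. On the log2(CPM + 1) scale, which understates changes of low genes, the mean difference was 5.94 (SE 0.32, limma adjusted p = 1.82e-06), higher in 3 of 3 AA libraries. Only 1 of the 14311 tested genes, Cdkn1a, had a larger log2 fold change. Cdkn1a, the p53 target that encodes the cell cycle inhibitor p21, had 192, 276 and 279 CPM in AA, against 3.26, 0.867 and 0.877 CPM in DMSO (log2 fold change 6.64). None of the 1897 distinct 31-base words of the Krt20 transcript occurred in another annotated gene. Since it entered the test through the AA libraries alone, this p and its calls in other settings are given as a description.

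Krt8 lies on chromosome 15 at 101996698 to 102004482 on the minus strand (ENSMUSG00000049382.10), with 9 exons, and encodes the main type II keratin of simple epithelia. Krt8 had 159, 162 and 226 CPM in AA, against 94.4, 139 and 99.9 CPM in DMSO. All AA libraries lay above all DMSO libraries, with AA replicate 3 the highest and DMSO replicate 2 the nearest to AA. The means were 183 ± 37.9 CPM in AA and 111 ± 24.3 CPM in DMSO (SD, n = 3 each), and the log2 fold change was 0.71 (SE 0.18, 95% interval 0.31 to 1.12, limma adjusted p = 0.0145). Leaving out AA replicate 3 ended the call (0.55, adjusted p = 0.0623), as did leaving out DMSO replicate 1 (0.61, adjusted p = 0.0545). Other scalings that ended it were equal library medians (0.45, adjusted p = 0.0762) and trimmed means of M values, TMM (0.50, adjusted p = 0.0554). Of the 31-base words of Krt8, 36.0% occurred in other annotated genes, most of them in the pseudogene Krt8-ps, which never exceeded 0.167 CPM, so reads could have been split between them.

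Krt18, the type I partner of Krt8, is its neighbour on chromosome 15, at 102028180 to 102032027 on the plus strand (ENSMUSG00000023043.7, 7 exons). The genes face away from each other with 23697 bases between them. Krt18 had 7.22, 12.5 and 11.7 CPM in AA, against 5.44, 3.47 and 4.95 CPM in DMSO. The groups did not overlap, and AA replicate 1 was the AA library nearest to DMSO. Means were 10.5 ± 2.86 CPM in AA and 4.62 ± 1.03 CPM in DMSO (SD, n = 3 each), with a log2 fold change of 1.01 (SE 0.27, 95% interval 0.43 to 1.60, limma adjusted p = 0.0152). Leaving out AA replicate 2 (0.88, adjusted p = 0.0706) or AA replicate 3 (0.92, adjusted p = 0.0575) ended the call. Only 96 to 223 reads in AA and 79 to 130 reads in DMSO stood behind these levels, and 11.4% of its 31-base words occurred in other annotated genes.

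Krt7, a type II keratin of ducts and urothelium, lies on chromosome 15 at 101411043 to 101430313 on the plus strand (ENSMUSG00000023039.17, 9 exons). Krt7 had 22.1, 53.8 and 28.9 CPM in AA, against 12.6, 14.2 and 15.5 CPM in DMSO. The DMSO libraries lay close together and all AA libraries lay above them, AA replicate 2 farthest. Means were 34.9 ± 16.7 CPM in AA and 14.1 ± 1.45 CPM in DMSO (SD, n = 3 each). The log2 fold change was 1.15 (SE 0.28, 95% interval 0.55 to 1.76, limma adjusted p = 0.0101), and it kept its call in every fit without 1 library, at 0.80 to 1.42.

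Krt19, a small type I keratin of ducts and of epithelial progenitors, lies on chromosome 11 at 100140810 to 100148665 on the minus strand (ENSMUSG00000020911.14, 6 exons). Krt19 had 3.16, 14.4 and 7.68 CPM in AA, against 3.47, 2.02 and 2.38 CPM in DMSO. The groups overlapped, since AA replicate 1 lay below DMSO replicate 1, while the other two AA libraries lay above all DMSO libraries. Means were 8.42 ± 5.67 CPM in AA and 2.63 ± 0.755 CPM in DMSO (SD, n = 3 each), with a log2 fold change of 1.20 (SE 0.41, 95% interval 0.30 to 2.10, limma adjusted p = 0.0447). This call was the least stable of the 5: it was lost in 12 of 18 other settings. Without AA replicate 2 the value was 0.75 (adjusted p = 0.179), without AA replicate 3 1.16 (0.106), and without DMSO replicate 1, 2 or 3 it was 1.36 (0.0596), 1.08 (0.12) or 1.16 (0.0715). Without AA replicate 1 it was 1.69 and called.

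Across the 5 genes, 4 did not overlap between groups with AA above, which 33.4% of all tested genes also showed. With TMM, equal medians or quantile normalization 3 of the 5, Krt20 among them, were called higher, where 13.2%, 11.2% and 12.7% of all tested genes were. A term that sets DMSO replicates 1 and 2 against the other libraries leaves the AA difference to rest on DMSO replicate 3. With it, Krt7, Krt8, Krt18 and Krt19 were not called, at log2 fold changes of 1.02 for Krt7 (adjusted p = 0.109), 0.84 for Krt8 (adjusted p = 0.0584), 0.91 for Krt18 (adjusted p = 0.148) and 1.28 for Krt19 (adjusted p = 0.168). In that setting 7.39% of all tested genes were called higher. The log2 fold change of every keratin of the 5 was above 0 in every setting run.

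**Figure D2:**
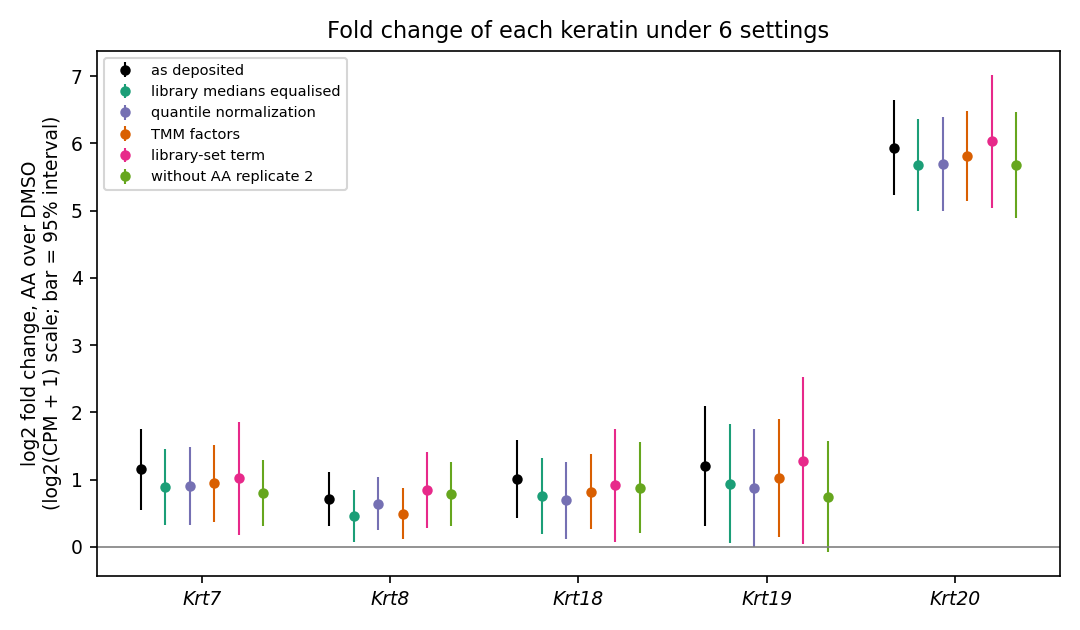
Log2 fold change of AA over DMSO for each of the 5 keratins under 6 settings, the fit of the deposited values first, with bars for the 95% interval. Krt20 lies apart from the others at 5.94 in that fit, and the other 4 lie between 0.71 and 1.20.

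Levels of different genes were compared per length, as CPM per kilobase of the longest annotated transcript. In AA the order was Krt8 (93.2 ± 19.3), Krt20 (35.9 ± 15.1), Krt7 (8.53 ± 4.07), Krt18 (7.29 ± 1.99) and Krt19 (5.34 ± 3.60). In DMSO it was Krt8 (56.7 ± 12.4), Krt7 (3.45 ± 0.355), Krt18 (3.21 ± 0.714), Krt19 (1.67 ± 0.479) and Krt20 (0.0362 ± 0.0627; SD, n = 3 each). Krt8 led in both groups, and Krt20 came next in AA and last in DMSO, whereas Krt7, Krt18 and Krt19 in AA, and Krt7 and Krt18 in DMSO, did not differ beyond their spread. Krt7 stood below Krt18 in both groups when all annotated exons were used as the length, with 4.95 ± 2.37 in AA and 2.00 ± 0.206 in DMSO.

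**Figure D3:**
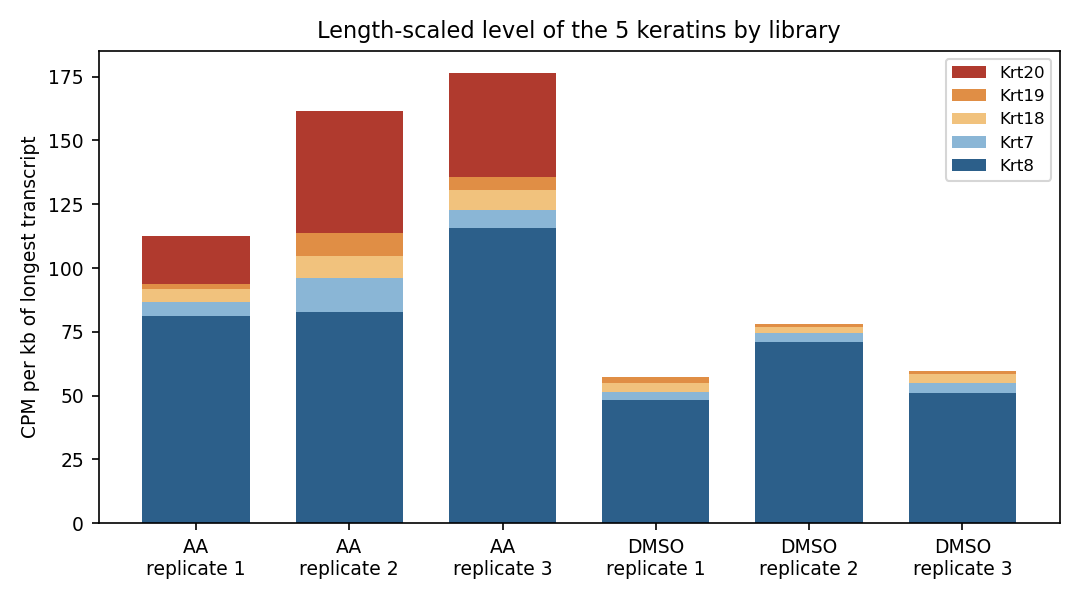
Stacked bars of CPM per kilobase of the 5 keratins, 1 bar per library and 1 colour per gene, with AA libraries left of DMSO libraries. The sums are 113, 162 and 176 in AA and 57.4, 78.2 and 59.8 in DMSO, with Krt8 the largest part in all 6 libraries.

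Krt8 made up 72.2%, 51.2% and 65.5% of the length-scaled total of the 5 in AA, against 84.0%, 90.8% and 85.4% in DMSO. Krt20 made up 16.8%, 29.6% and 23.1% in AA, against 0.189%, 0% and 0% in DMSO. The type I keratins together made up 31.4% ± 8.86 in AA and 7.88% ± 2.97 in DMSO (SD, n = 3 each), so the type II excess was smaller in AA. The log2 ratio of summed type II to summed type I CPM was 1.93, 0.85 and 1.37 in AA, against 3.42, 4.57 and 3.81 in DMSO, a mean difference of -2.55. Without Krt20 the difference was -0.40, with means of 3.54 ± 0.53 in AA and 3.94 ± 0.57 in DMSO, within the spread of the libraries. The log2 ratio of Krt8 to Krt18 was 4.01 ± 0.37 in AA and 4.31 ± 0.58 in DMSO, a difference of -0.30 that was also within the spread and turned to 0.02 with a pseudocount of 5 and to 0.03 without DMSO replicate 2. Of the rise of summed CPM, not scaled to length, Krt8 made up 41.3%, Krt20 39.9%, Krt7 12.02%, Krt18 3.39% and Krt19 3.35%. These ratios and shares were not tested.

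Within AA, replicate 1 was lowest for all 5 keratins. Replicate 2 was highest for Krt7, Krt18, Krt19 and Krt20, and replicate 3 for Krt8. AA libraries over the DMSO mean were 1.20-, 5.49- and 2.93-fold for Krt19, which varied most of the 4 genes read in all libraries, and 1.43-, 1.46- and 2.04-fold for Krt8. Deviations from the group means correlated at 0.96 for Krt19 with Krt20, 0.88 for Krt18 with Krt19 and with Krt20, and 0.85 for Krt7 with Krt19. Those of Krt8 correlated with the others at -0.17 to 0.16. These are descriptions over 6 points that share library, depth and group.

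In the AA libraries, summed markers of several, though not all, other cells had the same order as 4 of the keratins. Over all tested genes limma called 22.3% higher and 8.66% lower, and voom called 22.3% higher. Collecting duct principal cell markers (8 genes, 3 higher and 1 lower in AA) summed to 70.7, 115 and 85.5 CPM in AA, against 187, 89.96 and 86.2 CPM in DMSO. The DMSO sums were mostly Aqp4, a water channel gene on that list. It fell to 16.1, 12.8 and 6.18 CPM in AA, against 159, 53.8 and 68.7 CPM in DMSO (log2 fold change -2.83, limma adjusted p = 0.000522). In DMSO Aqp4 thus lay far above Aqp2, another water channel gene of the list, at 8.20, 9.41 and 7.27 CPM. Which cells the Aqp4 reads came from was not tested. Without Aqp4 the other 7 markers summed to 54.6, 102 and 79.3 CPM in AA, against 28.3, 36.2 and 17.5 CPM in DMSO, so the direction of the sum turned, while the order of the AA libraries did not. Intercalated cell markers (6 genes, 1 higher) summed to 11.7, 28.7 and 21.1 CPM in AA, against 9.37, 10.98 and 10.7 CPM in DMSO. Thick limb markers (6 genes, 2 higher and 1 lower) summed to 353, 1348 and 711 CPM in AA, against 494, 538 and 241 CPM in DMSO. Urothelial markers (7 genes, 5 tested, Krt5 among them; with limma 0 passed, 3 had an unadjusted p under 0.05, and voom called 1) summed to 8.64, 14.7 and 10.7 CPM in AA, against 6.61, 3.21 and 7.27 CPM in DMSO. In AA, each of these sums was lowest in replicate 1 and highest in replicate 2, as were Krt7, Krt18, Krt19 and Krt20. Distal convoluted tubule markers (5 genes, 4 tested; 0 passed with limma or voom, 0 at an unadjusted p under 0.05) had that order too, at 430, 581 and 514 CPM in AA, against 391, 393 and 466 CPM in DMSO. Thin limb markers (6 genes, 5 higher, of which Fst passed the filter through AA alone) had replicate 1 highest, at 560, 525 and 428 CPM in AA, against 127, 176 and 151 CPM in DMSO. Most of that sum was Cryab, at 518, 479 and 398 CPM in AA, against 117, 166 and 142 CPM in DMSO. The order of the thin limb sum is thus largely that of 1 gene, and the sum without Cryab was not computed.

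No gene of these marker lists had 0 reads in all 6 libraries. The water channel gene Aqp2, which defines principal cells, had 25.8, 66.5 and 38.0 CPM in AA, against 8.20, 9.41 and 7.27 CPM in DMSO (log2 fold change 2.16, limma adjusted p = 0.00047). The thick limb gene Umod, for uromodulin, had 159, 807 and 411 CPM in AA, against 270, 293 and 93.4 CPM in DMSO (0.94, adjusted p = 0.194). The urothelial gene Upk3a, for uroplakin, had 1.43, 2.25 and 1.94 CPM in AA, against 0.711, 0.610 and 0.940 CPM in DMSO (0.70, adjusted p = 0.0658). Upk3a passed the filter through the AA libraries alone, so its p adds no support, also in the urothelial count above. Upk3a stayed under 1 CPM in every DMSO library, and Krt20 had 0 reads in DMSO replicates 2 and 3. Whether Krt20 and Upk3a reads came from the same cells was not tested. Mesothelial markers (5 genes, 3 tested, 1 lower and 1 higher, the last through AA alone) summed to 152 to 217 CPM in AA and 226 to 329 CPM in DMSO, endothelial ones (6 genes, 3 higher) to 247 to 286 CPM in AA and 152 to 232 CPM in DMSO, and leukocyte ones (6 genes, 5 tested, 2 higher) to 157 to 213 CPM in AA and 174 to 266 CPM in DMSO. Most of the leukocyte sum was Csf1r, at 172, 111 and 151 CPM in AA, against 159, 253 and 202 CPM in DMSO. Csf1r did not pass (-0.50, limma adjusted p = 0.0773). Cd68, called higher, had 20.1, 26.6 and 38.4 CPM in AA, against 1.17, 1.25 and 0.376 CPM in DMSO (3.91, adjusted p = 1.3e-05). The leukocyte sum without Csf1r was not computed. The shares over all tested genes were 22.3% higher and 8.66% lower. The part of the cells of these lists in the keratin differences was not tested.

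**Figure D4:**
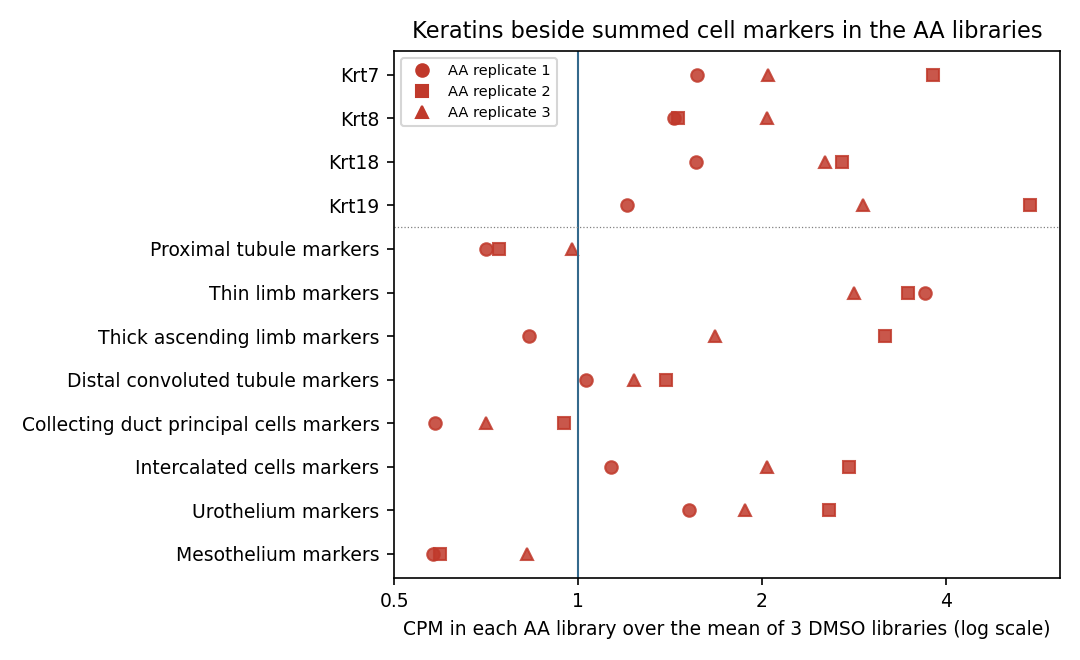
Levels of Krt7, Krt8, Krt18 and Krt19 and summed levels of cell type markers in each AA library, divided by the mean of the 3 DMSO libraries (line at 1), on a log axis. AA replicate 1 is the lowest AA library for these keratins and for every marker sum drawn except that of the thin limb. It is the highest for the thin limb sum, which is mostly Cryab, and Krt19 reaches 5.49 in AA replicate 2. The mesothelial sum is mostly Gpm6a.

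Injury genes gave a further order of the AA libraries. Havcr1, whose protein KIM-1 appears on injured tubule cells, had 22.3, 82.7 and 90.4 CPM in AA, against 2.93, 3.24 and 3.07 CPM in DMSO (log2 fold change 3.79). Lcn2, for the injury marker lipocalin NGAL, had 3.16, 7.30 and 1.80 CPM in AA, against 0.209, 0.289 and 0.313 CPM in DMSO (1.85). Havcr1 was called with limma (adjusted p = 0.00014), and Lcn2 passed the filter through the AA libraries alone, so its call adds no support. AA replicate 1 was low for Havcr1, as for the keratins, but not for Lcn2. The proximal tubule and mesothelial marker sums were lowest in AA replicate 1 and highest in AA replicate 3, as Krt8 was. Kap, the largest part of the proximal tubule sum, had that order too. Most of the mesothelial sum was Gpm6a, at 148, 152 and 215 CPM in AA, against 326, 224 and 235 CPM in DMSO. Each of these sums thus largely carries the order of 1 gene, and neither was computed without that gene.

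The other 49 keratin symbols, mostly keratins of skin and hair, were low in these tubules. Of them 15 had 0 reads in every library, 28 had some reads but a mean under 1 CPM in both groups, and 5 were tested. With limma 0 of the 5 passed after adjustment and 2 had an unadjusted p under 0.05. With voom on recovered reads 0 passed, where 22.3% of all tested genes were called higher. In the fit without DMSO replicate 3, 2 passed, where 19.8% were. Krt10, a type I keratin of suprabasal epidermis, had 5.23 ± 0.786 CPM in AA and 4.61 ± 0.641 CPM in DMSO (0.15, adjusted p = 0.656). Krt80 had 4.68 ± 1.53 CPM in AA and 2.47 ± 1.45 CPM in DMSO (0.78, adjusted p = 0.12).

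Krt15, a type I keratin of basal cells, had 2.56 ± 1.11 CPM in AA and 0.944 ± 0.491 CPM in DMSO (0.86, adjusted p = 0.062), with no overlap. Krt5, the type II keratin of basal cells, had 2.67 ± 1.58 CPM in AA and 0.962 ± 0.942 CPM in DMSO (0.94, adjusted p = 0.0993). Without DMSO replicate 3 both were called, and without AA replicate 3 Krt15 was, where 14.9% of all tested genes were called higher. Krt15 was also called with no variance trend, where 2915 of 14311 tested genes were called higher. With no filter, 2 of 34 other keratins tested were called higher, where 2543 of 22445 genes were. Krt26, a hair root keratin, had 1.34 ± 0.708 CPM in AA and 1.28 ± 0.430 CPM in DMSO (0.01, adjusted p = 0.979). Krt222 had 1.25 ± 0.560 CPM in AA and 0.450 ± 0.0108 CPM in DMSO and was not tested. Krt23, a type I keratin, stayed under the filter as well, with 0.943 ± 0.108 CPM in AA and 0.131 ± 0.0916 CPM in DMSO (named after its values were seen). All 49 together summed to 20.8 ± 1.88 CPM in AA and 11.9 ± 1.81 CPM in DMSO (SD, n = 3 each). The 5 keratins studied here summed to 305.5 ± 67.4 CPM in AA and 132.6 ± 22.9 CPM in DMSO; these sums are not scaled to length.

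**Figure D5:**
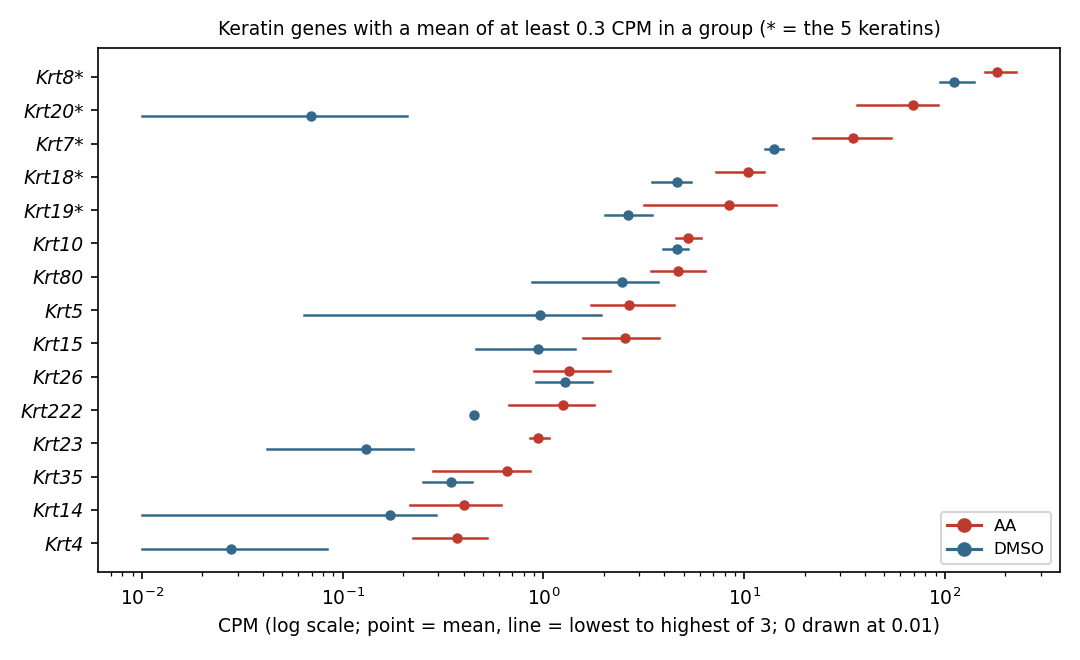
Mean CPM, on a log axis with 0 drawn at 0.01, of the 15 keratins with a mean of at least 0.3 CPM in either group, with AA drawn above DMSO for each gene, a point for the mean and a line from the lowest to the highest library. The values are not scaled to length, and Krt20 is the gene whose groups lie farthest apart.

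Intermediate filament genes other than keratins were mostly higher in AA. Of 16 listed, 8 were tested, 5 rose and 3 did not pass, with a median log2 fold change of 1.31, against 0.21 over all tested genes, of which 22.3% were called higher. Lmna, which encodes the nuclear lamins A and C, had 195 ± 20.6 CPM in AA and 70.8 ± 15.9 CPM in DMSO (1.47, limma adjusted p = 0.000155). Vim, for the mesenchymal filament protein vimentin, had 17.7 ± 1.95 CPM in AA and 6.26 ± 0.578 CPM in DMSO (1.36, adjusted p = 0.000818). Nes, for nestin, a large filament protein of progenitor cells and podocytes, had 22.8 ± 6.62 CPM in AA and 7.03 ± 0.895 CPM in DMSO (1.54, adjusted p = 0.000958). Synm, for synemin, a filament and linker protein, had 9.30 ± 1.43 CPM in AA and 3.29 ± 0.353 CPM in DMSO (1.26, adjusted p = 0.0026). Prph, for peripherin of peripheral neurons, was the other gene counted as higher and passed the filter through AA alone, so it had to differ, with 3.18 ± 1.51 CPM in AA and 0.459 ± 0.398 CPM in DMSO (1.49; named after its values were seen). Podocyte and parietal cell markers (6 genes, 2 higher) summed to 160 to 210 CPM in AA and 118 to 127 CPM in DMSO, and fibroblast and mural cell markers (6 genes, 3 higher) to 152 to 190 CPM in AA and 73.9 to 117 CPM in DMSO. Their part in the Vim, Nes and Synm differences was not tested.

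Genes whose products anchor keratins at desmosomes, hemidesmosomes or linker proteins were split. Of 24 listed, 23 were in the table and 17 were tested, of which 10 rose, 1 fell and 6 did not pass, with a median log2 fold change of 0.76. Over all tested genes 22.3% were called higher and 8.66% lower. Dsp, for desmoplakin, which ties keratins to desmosomes, had 29.8 ± 7.85 CPM in AA and 9.04 ± 0.296 CPM in DMSO (1.58, limma adjusted p = 0.000493). Perp, for a desmosomal membrane protein that is also a p53 target, had 138 ± 19.8 CPM in AA and 56.9 ± 2.54 CPM in DMSO (1.25, adjusted p = 0.000151). Ppl, for periplakin, a plakin linker, had 8.88 ± 0.721 CPM in AA and 2.59 ± 0.0938 CPM in DMSO (1.46, adjusted p = 0.000995). Fam83h, whose product binds keratins and helps set their organisation, had 75.6 ± 9.04 CPM in AA and 38.3 ± 8.32 CPM in DMSO (0.98, adjusted p = 0.00238). The gene that fell, Pkp4 for a plakophilin, had 430 ± 64.3 CPM in AA and 599 ± 57.7 CPM in DMSO (-0.48, adjusted p = 0.0347; named after its values were seen). With equal medians 8 rose and 3 fell, where 16.9% of all tested genes were called lower. With TMM 9 rose and 3 fell (14.8% lower over all), and with the library-set term 5 rose and none fell (2.96% lower over all).

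Chaperones and adaptors known from keratin inclusions, the Mallory-Denk bodies of liver, were also split: of 12 tested, 5 rose, 1 fell and 6 did not pass, with a median log2 fold change of 0.37. The same shares over all tested genes were 22.3% higher and 8.66% lower, and their median was 0.21. Cryab, for a small heat shock protein that binds intermediate filaments, had 465 ± 61.1 CPM in AA and 142 ± 24.5 CPM in DMSO (1.71, limma adjusted p = 5.6e-05). It is also a thin limb marker, and the 6 markers of that list, 5 of them higher, summed to 428 to 560 CPM in AA and 127 to 176 CPM in DMSO, Cryab included. Hspb1, for another small heat shock protein, had 25.6 ± 10.8 CPM in AA and 3.72 ± 0.187 CPM in DMSO (2.40, adjusted p = 0.000352). Hspa1a and Hspa1b, near-identical copies whose split of reads is uncertain, had log2 fold changes of 2.70 and 2.62 (adjusted p = 6.8e-05 and 0.000196).

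Of 14 genes listed with Krt8 and Krt18, mostly for adaptor proteins and kinases, 6 rose, 2 fell and 6 did not pass. Their median log2 fold change was 0.33, near the 0.21 of all tested genes, of which 22.3% were called higher and 8.66% lower. Sfn, for stratifin, an epithelial adaptor and p53 target, had 44.1 ± 1.04 CPM in AA and 2.24 ± 1.11 CPM in DMSO (3.87, limma adjusted p = 9e-06). Trp53, for p53, is counted in that list but is neither such an adaptor nor a kinase. It had 78.7 ± 10.8 CPM in AA and 32.4 ± 2.87 CPM in DMSO (1.25, adjusted p = 0.000237). Prkce, for protein kinase C epsilon, which phosphorylates these keratins, had 12.7 ± 2.32 CPM in AA and 36.5 ± 2.06 CPM in DMSO (-1.46, adjusted p = 0.000287). Dsp, given above, is in this list as well.

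The genes most like each keratin over the 6 libraries were found by Pearson's correlation on log2(CPM + 1) among 13134 tested genes. Predicted genes and pseudogenes with Gm, Rik or -ps symbols were left out. Clone-named genes such as RP23-74O12.6 were kept. For Krt20 these were Pank2 (r = 1.000), Hgsnat (0.999) and Net1 (0.999), with 16.5% of the genes compared above 0.9. Pank2, Hgsnat and Net1 had log2 fold changes of 0.67, 0.72 and 1.65, against 5.94 for Krt20, since r takes no account of the size of a change. Net1 had 237 ± 26.99 CPM in AA and 74.6 ± 4.39 CPM in DMSO. For Krt7 they were Fgg (0.996), Gorasp2 (0.993) and Wdr35 (0.993), and Fgg, for the fibrinogen gamma chain, had 15.6, 135 and 28.9 CPM in AA, against 5.36, 5.88 and 9.15 CPM in DMSO, high in AA replicate 2 as Krt7 was. For Krt18 they were Rraga (0.998), Btaf1 (0.998) and RP23-74O12.6 (0.996). For Krt19 they were Arl13b (0.993), Kng2 (0.990) and Ankrd46 (0.989), and 3.52% of the genes compared were above 0.9, the lowest share of the 5 keratins. For Krt8 they were Naip5 (0.996), Rsrp1 (0.995) and Sin3b (0.994). Gorasp2, Wdr35, Btaf1, RP23-74O12.6, Arl13b, Kng2 and Ankrd46 were not called with limma (adjusted p = 0.052 to 0.421), while the other genes named here were.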

How the data were processed

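RNA of 6 tubule libraries (3 AA, 3 DMSO) was measured. The authors deposited 1 table of log10 values, which the values themselves show to be log10(CPM + 1). They were turned back to CPM, and whole reads were recovered for 100% of them within 0.1 read. Libraries were of the TruSeq Stranded mRNA type, per the labels' protocols. The submitters' processing notes name bcl2fastq 2.19, kallisto (no version or role) and mm10. For the annotation, the joining of transcripts to genes and the strand setting: not given in the sources used here. Of the symbols, 27 had become dates and 2 were repeated.

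The 14311 genes that reached 1 CPM in 3 libraries were tested with limma 3.58.1 in R 4.3.3, with a variance trend, on log2(CPM + 1). P-values were two-sided and adjusted by Benjamini-Hochberg over all tested genes. SE is the moderated standard error. A count of 0 allows 3 reads, and intervals are at 95%. Exact binomial limits cover counting error only. The test was checked on simulated data.

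The 5 keratins, the gene lists, the markers and the naming rule were chosen with earlier results of these data known. The rule names all 5 keratins; up to 4 tested genes per gene list with the smallest adjusted p; other keratins at 1 CPM or more; the 3 genes most like each keratin; and Havcr1, Lcn2, Cdkn1a, Aqp2, Umod, Vim and Upk3a. It also takes the 2 highest genes of each marker list, given here as list sums, save Kap, Slc27a2, Cryab, Krt5, Aqp2, Aqp4, Umod, Gpm6a, Csf1r and Cd68. Fits without 1 library kept the 14311 genes. Gene coordinates came from GENCODE M21 (mm10) and promoters from RefSeq (GRCm38.p6). Alternatives were TMM factors (computed here from their definition), quantile normalization, equal medians, a filter of 4 CPM or none, pseudocounts of 5 and 0.1, array weights, robust variance, no variance trend, a library-set term, a replicate block, voom on recovered reads and leaving out each library. The union of exons as length, the type II to type I ratio without Krt20 and the principal cell sums without Aqp4 were added after the data were seen. The values of 1 gene of the keratin inclusion list are not reported here.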

Additional observations from a re-analysis of the deposited data

How the results depend on the processing

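Krt20, which passed the filter through AA alone, had values of 3.78 to 10.38 in 19 other settings. Calls were kept for Krt7 in 18 of 19 settings, for Krt8 and Krt18 in 14 of 19 each and for Krt19 in 6 of 18, and no direction of the 5 changed. The lost calls not given in the report were those of Krt18 with quantile normalization (0.69, adjusted p = 0.0701) and without a filter (1.01, 0.0529). Krt19 was lost with equal medians (0.94, 0.103), quantile normalization (0.87, 0.128), TMM (1.02, 0.079), no filter (1.20, 0.128) and no variance trend (1.20, 0.067). With the library-set term the values were 1.02 for Krt7, 0.84 for Krt8, 0.91 for Krt18 and 1.28 for Krt19, and for Krt8 they were 0.45 with equal medians and 0.50 with TMM. Without 1 library each, Krt7 ranged from 0.80 to 1.42, Krt8 from 0.55 to 0.88, Krt18 from 0.86 to 1.24, Krt19 from 0.75 to 1.69 and Krt20 from 5.68 to 6.34. The filter of 4 CPM left Krt19 untested. Genes higher in AA numbered 3187, against 1606 with equal medians, 1822 with quantile normalization, 1885 with TMM, 1058 with the library-set term and 1842 to 2839 without 1 library, the lowest without AA replicate 2. Genes lower in AA numbered 1239, against 2422, 2077, 2111 and 423 in those 4 settings and 803 to 1141 without 1 library. The type II to type I log2 ratio differed by -2.55, by -0.40 without Krt20, and by -2.82 to -2.23 without 1 library. Same-numbered libraries did not deviate together (r = -0.11, -0.16 and -0.02), and 0 of 3 AA libraries correlated best with their own number; with a replicate block 2768 genes were higher and 1045 lower, and Krt19 was not called (1.20, adjusted p = 0.0525). For the lost calls the cause was not tested. Krt18 and Krt19 rested on at most 257 reads per library.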
